A study of Mus musculus with 9 samples.

Results

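Paneth cells sit at the base of small intestinal crypts and secrete granules of antimicrobial peptides and enzymes. The genes described here are the alpha-defensins of the mouse and 8 other genes of that secretory programme. They were chosen by name: every row of the deposited table whose symbol starts with Defa followed by a digit or by -ps, together with Lyz1, Mmp7, Ang4, Itln1, Pla2g2a, Mptx2, Habp2 and Clps. The rule found 53 of the 78239 genes in the table, of which 28 were alpha-defensin genes, 17 were alpha-defensin pseudogenes and 8 were the other genes.

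The libraries came from epithelial cells, sorted on GFP, of mice with the Lgr5-2A-eGFP allele at 8 weeks of age. In these mice GFP is made along with Lgr5, the R-spondin receptor that marks stem cells of the gut, and every group carried that allele with no further treatment named. The 9 polyadenylated RNA libraries fell into 3 groups of 3, the GFP-high and the GFP-negative cells of the colon and sorted cells of the small intestine, from at least 30000 cells each for the colon and 50000 for the small intestine. The labels give neither the GFP fraction of the small intestinal cells nor the animals behind each library, so tissue and GFP fraction cannot be told apart, and a p-value refers to the variation among these samples, which may be technical.

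The libraries held 86621513 to 106673547 counts. Lgr5 went against the labels in the second colon pair, with 0.958 CPM (counts scaled to a common library size) in the library labelled GFP-high replicate 2 and 62.1 CPM in the library labelled GFP-negative replicate 2. GFP-high replicates 1 and 3 held 43.5 and 73.0 CPM, GFP-negative replicates 1 and 3 held 2.84 and 6.28 CPM, and small intestine held 57.9, 120 and 209 CPM. Every library stays in its labelled group below, and the counts of genes called and most of the genes named are also given without this pair. Olfm4, a stem cell gene of the small intestine named here after its values were seen, lay between 4909 and 8852 CPM in small intestine and between 2.21 and 5.15 CPM in colon.

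Alpha-defensins are made as inactive precursors. In mouse Paneth cells the protease matrilysin, encoded by Mmp7, cuts the precursors, and the released peptides, long called cryptdins, kill bacteria in the crypt lumen. Lysozyme digests bacterial cell walls, and secretory phospholipase A2, angiogenin 4, intelectins and pentraxins are further secreted defence proteins. Paneth cells are a normal part of the small intestinal crypt and are rare in the healthy mouse colon.

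All 28 alpha-defensin genes lie on chromosome 8 of GRCm38 within 709927 bases, from position 21025545 to 21735471, with 23 on the plus and 5 on the minus strand. Their coding sequences fall into 3 classes by the spacing of cysteine codons, which pair into the disulfide bonds of the peptide. The last 114 coding bases, stop codon included, are shown in GENCODE M21 for the genes on which the results turn, to show how the classes differ and how close the copies are. Capitals mark cysteine codons.
Defa24: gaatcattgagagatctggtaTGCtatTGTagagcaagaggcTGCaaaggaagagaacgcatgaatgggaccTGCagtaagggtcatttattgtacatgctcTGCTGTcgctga
Defa30: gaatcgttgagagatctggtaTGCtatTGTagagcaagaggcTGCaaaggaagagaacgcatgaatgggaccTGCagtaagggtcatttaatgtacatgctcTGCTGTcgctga
Defa5: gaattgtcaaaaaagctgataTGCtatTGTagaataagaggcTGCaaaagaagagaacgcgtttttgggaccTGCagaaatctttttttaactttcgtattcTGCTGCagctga
Defa21: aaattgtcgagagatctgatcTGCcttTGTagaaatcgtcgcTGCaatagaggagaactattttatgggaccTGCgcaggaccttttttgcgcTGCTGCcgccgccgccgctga
Defa20: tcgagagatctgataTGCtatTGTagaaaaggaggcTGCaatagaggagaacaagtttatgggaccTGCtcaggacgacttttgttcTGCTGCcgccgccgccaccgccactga
Defa38: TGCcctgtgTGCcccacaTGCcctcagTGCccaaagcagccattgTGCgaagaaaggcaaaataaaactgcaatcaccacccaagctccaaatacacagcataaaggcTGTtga
Defa39: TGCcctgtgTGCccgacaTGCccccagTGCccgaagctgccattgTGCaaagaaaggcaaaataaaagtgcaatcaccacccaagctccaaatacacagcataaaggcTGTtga
Defa24, Defa30 and Defa5 belong to the class of 17 genes with a long last loop, which in these 3 genes has 9 codons between the fourth cysteine and the final pair. Defa21 and Defa20 belong to a class of 6 genes with 6 codons there, here called the short-loop class (Defa2, Defa20, Defa21, Defa22, Defa32 and Defa33). Defa38 and Defa39 belong to a class of 5 genes with 11 cysteine codons in all and repeats of cysteine and proline, the arrangement of cryptdin-related peptides (Defa29, Defa38, Defa39, Defa42 and Defa43). These 5 genes are the 5 on the minus strand.

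The copies are so alike that the value of a single gene depends on how reads were shared among them, a step the labels do not describe. Over their whole coding sequences Defa24 and Defa30 differ at 4 of 282 positions and Defa38 and Defa39 at 11 of 351, while Defa2 and Defa33 are identical, as are Defa20 and Defa32. At 95% coding identity the 28 genes fall into 7 groups of at least 2. The share of 50-base windows of a transcript found in no other gene ranged from 0% to 71.9% with a median of 20.55%, and was under 10% for 13 of the 28. Defa24 had the highest share, 71.9%. Among the other abundant genes Defa39 had 66.5%, Defa29 had 56.6%, Defa30 had 47.6% and Defa38 had 44.4%. Defa17 had 8.0%, so its value is less certain. A sum over the family is not changed by how reads were divided among its genes, but it would change if reads that fit several genes were dropped or counted more than once.

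The alpha-defensins were abundant in small intestine and close to absent from colon. Their summed level was 17603, 16524 and 10382 CPM in the 3 small intestinal libraries, a mean of 14836 ± 3895 CPM (SD, n = 3). These reads made up 1.42%, 1.70% and 1.26% of all counts. In the colon the family held 9.40, 4.75 and 3.00 CPM in GFP-high replicates 1 to 3 (5.72 ± 3.31) and 11.6, 6.88 and 3.87 CPM in GFP-negative (7.44 ± 3.89). The lowest small intestinal library thus lay far above the highest colon library. The mean was 2596 times that of colon GFP-high and 1993 times that of colon GFP-negative. With the family summed to a single row, edgeR gave a log2 fold change of 11.34 ± 0.84 (SE) over GFP-high (adjusted p = 0.000343) and of 10.96 ± 0.83 over GFP-negative (adjusted p = 0.000373). In these bulk samples, fewer Paneth cells and less of the RNA per cell cannot be told apart.

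**Figure D1:**
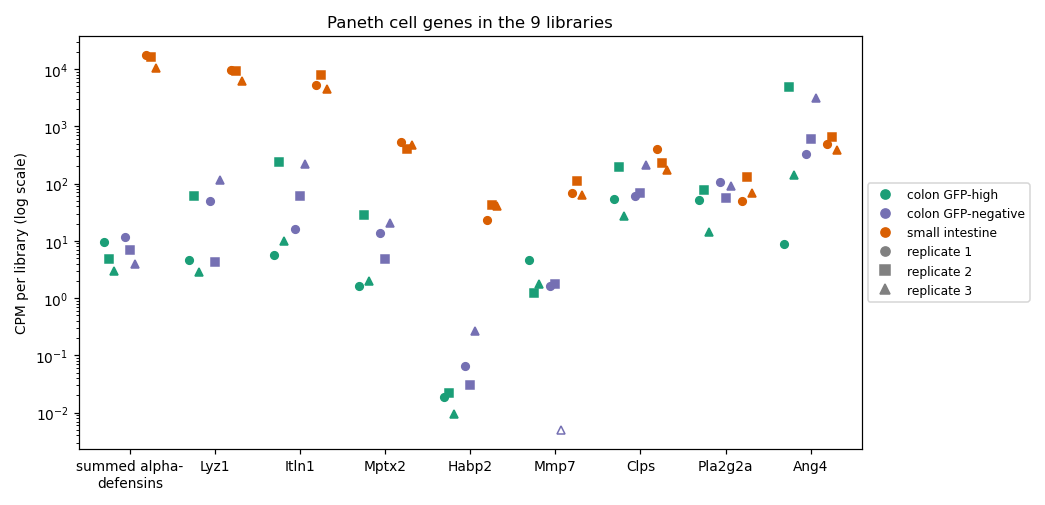
Level of the summed alpha-defensins and of each of the 8 other genes in every library, in CPM on a log scale, with color for the group and marker shape for the replicate number. The open triangle for Mmp7 is a library with no count (GFP-negative replicate 3), drawn at the foot of the axis. The small intestinal libraries stand above all colon libraries for the summed alpha-defensins, Lyz1, Itln1, Mptx2, Habp2 and Mmp7, and overlap them for Clps, Pla2g2a and Ang4.

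Of the 53 genes, 35 had enough counts to be tested: 26 of 28 alpha-defensin genes, 1 of 17 pseudogenes and all 8 others. Most of the defensins passed that filter through the small intestinal libraries, since in a fit of the colon libraries alone 15 of the 53 passed. Genes that passed this way had to be high in small intestine. The counts called and the medians below are thus favoured in advance, and the values of all genes beside them are no test of the set. Small intestine was higher than colon GFP-high for 30 of the 35 at an adjusted p under 0.05, where 1.75% of the 20610 genes tested were called higher. Over colon GFP-negative 31 were higher, where 1.71% of genes were. In each comparison the called genes included all 26 tested alpha-defensins and the pseudogene Defa-ps4, and none of the 35 was called lower. Without the second colon pair 28 of 36 were higher in each, where 0.547% of all genes tested were called higher over GFP-high and 1.07% over GFP-negative. The median log2 fold change of the 35 was 10.94 over GFP-high and 10.5 over GFP-negative, against -0.0201 and 0.00157 over all genes tested. It was 10.84 and 10.45 when the 5 and 4 genes with no count in that colon group were set to the bound that 3 counts per library allow. The 2 comparisons share the small intestinal libraries, and near-identical copies may share reads, so the calls are not independent.

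Without a test, all 3 small intestinal libraries lay above all 6 colon libraries for 36 of the 53 genes, where 2.57% of all genes in the table did so. These were 27 of the 28 alpha-defensin genes, 4 pseudogenes and 5 of the others. The exception among the genes was Defa25, which had no count in 1 small intestinal library. Defa25 and Defa27 were the 2 alpha-defensin genes too low to test, with 31 and 39 counts over the small intestinal libraries. Of the 17 pseudogenes, 11 had no count in any library. Summed, the pseudogenes reached 0.672, 0.635 and 0.597 CPM in small intestine and none in colon, so they add almost nothing to the family.

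Defa24, a long-loop gene at chr8:21734494-21735471, took the most counts of the family. It held 7808, 7117 and 4563 CPM in small intestine, against 4.40, 2.10 and 1.45 CPM in the GFP-high and 5.17, 2.75 and 1.67 CPM in the GFP-negative colon libraries. The ranges are far apart, and the log2 fold change was 11.25 ± 0.82 over GFP-high (adjusted p = 0.000243) and 10.99 ± 0.81 over GFP-negative (adjusted p = 0.000256). This gene took 44.4%, 43.1% and 44.0% of the family's counts in the 3 small intestinal libraries. Per length, its level of 15504 ± 4080 RPKM (SD, n = 3; reads scaled to gene length and library size) was above that of Lyz1, at 6627 ± 1487 RPKM.

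Defa38, Defa39 and Defa30 followed, and with Defa24 they made up 83.2% of the family's counts on average. Per length Defa38 was the highest of these 3 in every small intestinal library, with 7224, 6062 and 4513 RPKM (mean 5933 ± 1360.0). Its annotated length of 351 bases is that of the coding sequence alone. Defa39 has the same coding length and an annotated length of 503 bases, so the order per length depends on the annotation. Defa30 held 5669, 4696 and 3109 RPKM and was above Defa39, with 4971, 3343 and 3160 RPKM, in replicates 1 and 2 but not in replicate 3. The cryptdin-related Defa38 (chr8:21095074-21096050) held 2536, 2128 and 1584 CPM in small intestine and 0.343 to 1.70 CPM in the 6 colon libraries. Its class relative Defa39 (chr8:21702519-21703645) held 2500.4, 1682 and 1589 CPM in small intestine and 0.391 to 1.44 CPM in colon. The long-loop Defa30 (chr8:21134642-21135598), the near copy of Defa24, held 2256, 1869 and 1238 CPM in small intestine and 0.391 to 1.23 CPM in colon. In all 3 genes the small intestinal values exceeded every colon value, as they did for Defa24. The log2 fold changes over GFP-high were 11.57 ± 0.79 (adjusted p = 0.000177), 11.27 ± 0.73 (adjusted p = 0.000142) and 11.44 ± 0.64 (adjusted p = 7.46e-05).

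The next genes by counts were Defa17, Defa21, Defa29 and Defa22, with 1243 ± 346, 849 ± 549.6, 687 ± 249 and 718 ± 509 RPKM. Per length Defa17 was above Defa29 in all 3 libraries, while Defa21 and Defa22 were above Defa17 in replicate 2 and below it in the others. Defa17, a long-loop gene, held 627, 502 and 352 CPM in small intestine and 0.0465 to 0.415 CPM in colon. Defa29, of the cryptdin-related class, held 459.9, 376 and 211 CPM in small intestine and 0 to 0.350 CPM in colon. In CPM these 2 genes, like the leading 4, were highest in replicate 1 and lowest in replicate 3. That order depends on the scaling of the libraries. As a share of all counts the long-loop class held 0.905%, 1.04% and 0.781%, highest in replicate 2. The cryptdin-related class held 0.449%, 0.440% and 0.417%. The short-loop genes had another order in CPM: Defa21 held 256, 618 and 191 CPM and Defa22 197, 546 and 159 CPM in small intestine, with replicate 2 highest. In colon Defa21 reached 0.745 CPM and Defa22 0.350 CPM at most. Log2 fold changes of these 4 genes over GFP-high lay between 10.21 ± 1.22 (Defa21, adjusted p = 0.00278) and 11.66 ± 1.38 (Defa29, adjusted p = 0.00267). Without the second colon pair the 8 leading alpha-defensins were all still called, with log2 fold changes of 9.78 to 11.75 over GFP-high and 10.47 to 10.998 over GFP-negative (adjusted p up to 0.0230).

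**Figure D2:**
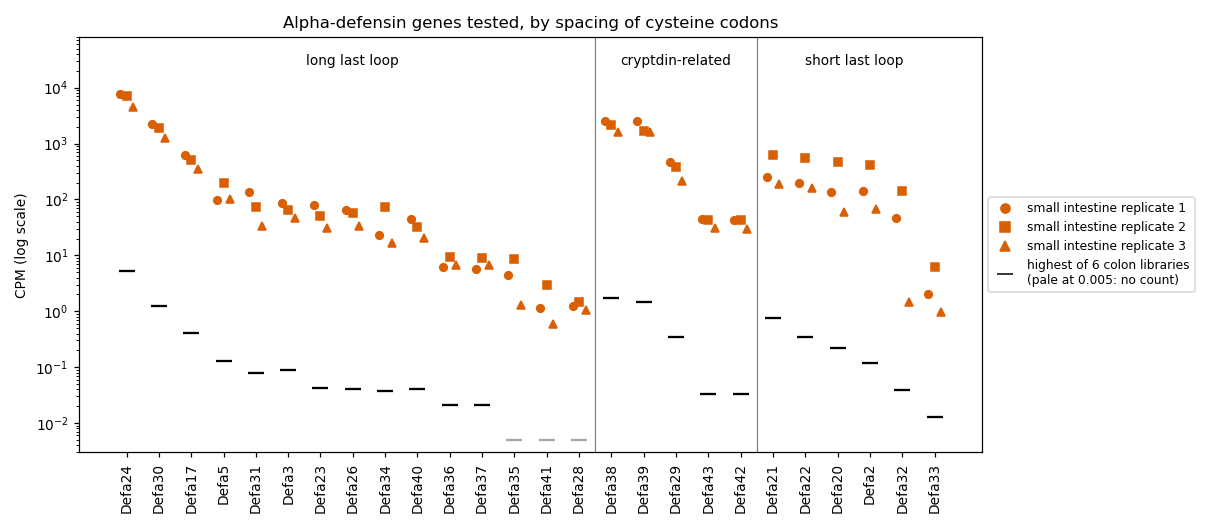
Level in CPM on a log scale of each of the 26 alpha-defensin genes tested, sorted by class and then by level, with small intestinal replicates 1 to 3 as points and the highest of the 6 colon libraries as a dash. A pale dash at the foot marks a gene with no count in any colon library. Every point lies above its dash, and in the short-loop class on the right replicate 2 is the highest point for all 6 genes.

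The make-up of the family differed between the small intestinal libraries, only partly along the classes. The short-loop genes summed to 774, 2184 and 481 CPM, so replicate 2 held 3.48 times the mean of the other 2 libraries. Each of the 6 genes was highest there, at 2.76 to 5.85 times that mean. The long-loop genes summed to 11245, 10069 and 6455 CPM and the cryptdin-related genes to 5583, 4271 and 3445 CPM. In those classes replicate 2 held 1.14 and 0.946 times the mean of the others in CPM. An excess as large as that of the short-loop genes was thus seen in part of the family and not in its sum. As a share of all counts the sum too was highest in replicate 2, at 1.70% against 1.42% and 1.26%. The short-loop class held 0.225% there, against 0.0623% and 0.0582%. Within the long-loop class a group of near-identical genes, Defa5, Defa34, Defa35, Defa36, Defa37 and Defa41, shared the order of the short-loop genes, with 139, 299 and 136 CPM and all 6 members highest in replicate 2. These members stood there at 1.45 to 3.80 times the mean of the other 2 libraries, which overlaps the range of the short-loop genes. Of the 15 long-loop genes tested, 7 were highest in replicate 2. The coefficient of variation over the 3 libraries had a median of 88.7% in the short-loop, 31.7% in the long-loop and 22.9% in the cryptdin-related class. Among the long-loop genes it reached 84.1%. With a single group of 3 libraries, and copies that share reads, this difference has no test.

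As a share of the family's counts, the short-loop class made up 4.40%, 13.2% and 4.63% in the small intestinal libraries. In colon the share was 12.3% in GFP-high replicate 1 (95% exact binomial interval 10.3% to 14.5%), where it came from 121 of 985 counts. In the other colon libraries it lay between 3.67% (2.11% to 5.89%) and 8.86% (6.14% to 12.3%). These intervals cover counting error only. The short-loop share was thus highest in a small intestinal and in a colon library whose names carry the same tag, 2_7_2, whose meaning the labels do not give. GFP-negative replicate 1 has that tag as well and had a share of 8.05% (6.36% to 10.03%). The high shares also differed in make-up. In GFP-high replicate 1 Defa21 and Defa22 held 10.5% of the family's counts, and Defa2, Defa20, Defa32 and Defa33 held 1.83%. In small intestine replicate 2 these groups held 7.04% and 6.18%.

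**Figure D3:**
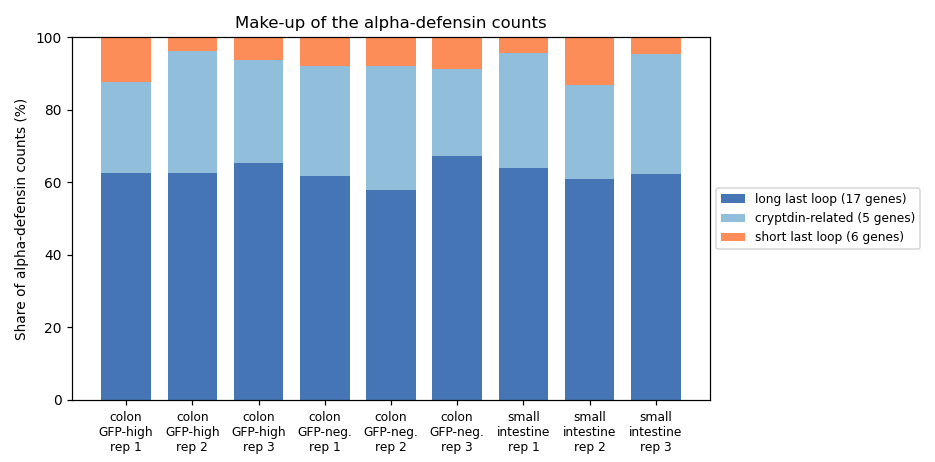
Share of the alpha-defensin counts of each library taken by the long-loop (17 genes), cryptdin-related (5 genes) and short-loop (6 genes) classes, in percent. The short-loop share stands at 13.2% in small intestine replicate 2 and 12.3% in colon GFP-high replicate 1, and at 3.67% to 8.86% in the other 7 libraries. Colon shares rest on 322 to 985 counts each and small intestinal shares on 1283933 to 1692375.

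Near-identical copies showed how far single values can be trusted. Defa42 and Defa43, which are identical in their coding sequence, had 3151 and 3227, 4358 and 4401, and 3850 and 3955 counts in the 3 small intestinal libraries, nearly even in each. Defa36 and Defa37, also identical, were nearly even as well, with 458 and 408, 977 and 920, and 879 and 880 counts. Defa20 and Defa32 are identical in coding sequence too, yet had 9734 and 3362 counts in replicate 1, 47827 and 14240 in replicate 2 and 7733 and 190 in replicate 3. Defa32 alone therefore ranged from 1.47 to 139 CPM, while the group of Defa2, Defa20, Defa32 and Defa33 summed to 321, 1020.4 and 130.3 CPM. The order of the libraries was the same in the sum as in the single genes. Defa2 and Defa33, identical too, were further apart, with 10185 and 149, 41804 and 638, and 8776 and 126 counts. Defa17 and Defa3 are also identical in coding sequence, and had 45704 and 6340, 51392 and 6754, and 45451 and 6072 counts.

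Traces of the family were counted in every colon library, from 322 counts in GFP-high replicate 3 to 985 in GFP-high replicate 1. The colon level was 0.0202% to 0.0781% of the small intestinal mean. Defa24 took 40.0% to 48.4% of these colon counts, close to its share of 43.1% to 44.4% in small intestine. In 22 of the 53 genes, 5 of them alpha-defensin genes and 17 pseudogenes, no colon library had a count. A mean of 0 in colon allows for these genes only a bound, and the small intestinal mean of the tested ones was at least 14.4 (Defa-ps4) to 163 (Defa35) times colon GFP-high.

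Promoters of the family were compared because the genes lie in a tandem array and were high together. RefSeq promoters, on GRCm38.p6, were found by symbol for 16 of the 45 alpha-defensin genes and pseudogenes and for 6 of the 8 other genes. The 120 bases before the start are shown for a pair of short-loop genes, a long-loop gene and a cryptdin-related gene. Capitals mark TATAAA and ATCAAAG, the reverse complement of CTTTGAT.
Defa21 (chr8:21025425-21025544, plus strand): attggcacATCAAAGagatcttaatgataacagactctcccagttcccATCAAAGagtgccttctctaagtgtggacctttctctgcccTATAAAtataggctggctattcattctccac
Defa20 (chr8:21509138-21509257, plus strand): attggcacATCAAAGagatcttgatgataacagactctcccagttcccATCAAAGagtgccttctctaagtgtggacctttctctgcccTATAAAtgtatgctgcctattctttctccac
Defa23 (chr8:21054920-21055039, plus strand): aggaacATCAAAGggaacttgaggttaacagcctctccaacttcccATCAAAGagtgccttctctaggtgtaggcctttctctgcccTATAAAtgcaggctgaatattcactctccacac
Defa38 (chr8:21096051-21096170, minus strand): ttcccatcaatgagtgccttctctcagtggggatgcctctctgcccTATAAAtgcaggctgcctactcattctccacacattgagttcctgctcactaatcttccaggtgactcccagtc
In the 250 bases before the start, TATAAA on either strand was present in 15 of the 16 alpha-defensin promoters (93.8%), in 1 of 7 promoters of the other genes and in 12.4% of 32851 promoters of all genes. The 7 belong to 6 genes, since Mmp7 has 2 promoters. CTTTGAA or CTTTGAT, letters bound by the Wnt-pathway factors of the TCF/LEF family, occurred on either strand in 13 of the 16 (81.2%), in 1 of the 7 and in 7.48% of all. The alpha-defensin promoters without them were those of Defa38, Defa42 and Defa43, the only cryptdin-related promoters found. The match among the 7 was in the Mmp7 promoter at chr9:7692091-7692340, which lies inside the annotated gene. In these promoters matches to the 2 motifs do not overlap. Neighbouring copies share most of their promoter, so the 16 are not independent, and a match is a description of letters only.

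Mmp7 (chr9:7692090-7699585), which encodes the protease that activates the defensins, was far less abundant per length than the leading defensins, at 67.1 ± 22.3 RPKM. It held 68.7, 113 and 62.9 CPM in small intestine, 4.66, 1.25 and 1.76 CPM in GFP-high and 1.63, 1.77 and 0 CPM in GFP-negative colon. The groups did not overlap. The log2 fold change was 6.17 ± 1.40 over GFP-negative (adjusted p = 0.0372) and 4.99 ± 1.32 over GFP-high, which did not pass (adjusted p = 0.0656). The GFP-negative call depended on the libraries: without the second colon pair its adjusted p was 0.0842, and among the 9 omissions of a single library it held only without GFP-high replicate 1 or GFP-negative replicate 3. The GFP-high comparison passed without GFP-negative replicate 3, with an adjusted p of 0.00297.

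Lyz1 (chr10:117287797-117292868), the lysozyme of Paneth cells, held 9598, 9304 and 6208 CPM in small intestine, more counts than any other single gene of the set. In colon it was uneven, with 4.56, 60.5 and 2.89 CPM in GFP-high and 49.1, 4.29 and 115 CPM in GFP-negative. All small intestinal libraries stood above all colon libraries. The log2 fold change was 8.54 ± 1.72 over GFP-high (adjusted p = 0.0240) and 7.20 ± 1.63 over GFP-negative (adjusted p = 0.0365). Without the second colon pair these were 11.13 (adjusted p = 0.00156) and 6.66 (adjusted p = 0.00460). The call over GFP-high was lost on leaving out replicate 1 or 3 of GFP-high, replicate 1 of GFP-negative, or replicate 1 or 3 of small intestine (adjusted p up to 0.0781). The call over GFP-negative was lost on leaving out any library of the 2 groups compared (adjusted p up to 0.152).

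The coding sequence of Lyz1 differs from that of Lyz2, the lysozyme of macrophages, at 22 of 447 positions. Of the 50-base windows of their transcripts, 83.9% for Lyz1 and 84.6% for Lyz2 were found in no other gene. Lyz2 held 133 CPM in GFP-high replicate 2, 474 in GFP-negative replicate 1 and 540.4 in GFP-negative replicate 3, and at most 0.717 CPM in the other 3 colon libraries. The 3 colon libraries with the most Lyz1 were the same 3. The leukocyte list of 12 genes, which includes Lyz2, summed to 628, 752 and 5475 CPM in these 3, to 56.5 to 88.5 CPM in the other colon libraries, and to 2517, 2611 and 1089 CPM in small intestine. Of these sums Cd74, a gene of antigen presentation named after its values were seen, held 407, 126 and 4651 CPM in these 3 and 1054 to 2599 CPM in small intestine. Lgr5 was also lowest in these 3 among the colon libraries. Their part in the Lyz1 values was not tested. Small intestine held 7.69 to 14.2 CPM of Lyz2, far below its Lyz1.

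The ratio of Lyz1 to Defa24 counts showed the same unevenness. It was 1.23, 1.31 and 1.36 in the small intestinal libraries. In colon it was 1.04, 28.8 and 1.99 in GFP-high and 9.501, 1.56 and 69.0 in GFP-negative. So for Lyz1 3 colon libraries had the proportion of small intestine within a factor of 2, and the 3 with high Lyz2 did not. Ratios of other genes to Defa24 were above small intestine in GFP-high replicates 1 and 3 and GFP-negative replicate 2. Mmp7 stood at 1.06, 1.21 and 0.645, against 0.00880 to 0.0158 in small intestine. Mptx2 stood at 0.373, 1.37 and 1.72, against 0.0575 to 0.102. Itln1 stood at 1.27, 6.96 and 22.2, against 0.668 to 1.09.

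Itln1 (chr1:171518122-171535294), which encodes intelectin 1, a lectin that binds microbial sugars, held 5214, 7783 and 4400.0 CPM in small intestine. Colon GFP-high had 5.60, 234 and 10.1 CPM and colon GFP-negative 16.1, 61.1 and 219 CPM. The groups did not overlap, but the spread within colon was wide. The log2 fold changes of 6.13 ± 1.64 (adjusted p = 0.0687) and 5.87 ± 1.62 (adjusted p = 0.0768) did not pass. Without the second colon pair they passed, at 9.53 (adjusted p = 0.0208) and 5.62 (adjusted p = 0.0471), and without GFP-high replicate 2 alone the adjusted p was 0.0143 and 0.0164. DESeq2 and limma-voom also called Itln1 in both comparisons.

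Mptx2 (chr1:173274382-173277777), a mucosal pentraxin, was the steadiest of the 8 in small intestine, with 525, 409 and 463 CPM and a coefficient of variation of 12.5%. In colon it held 1.64, 28.4 and 1.99 CPM in GFP-high and 14.0, 4.72 and 20.1 CPM in GFP-negative, all below. The log2 fold change was 5.46 ± 1.20 over GFP-high (adjusted p = 0.0342) and 5.16 ± 1.18 over GFP-negative (adjusted p = 0.0389). Without the second colon pair it was 8.00 (adjusted p = 0.000714) and 4.77 (adjusted p = 0.00151). Over GFP-high the call was lost on leaving out GFP-high replicate 1 or 3, GFP-negative replicate 1 or any small intestinal library (adjusted p up to 0.0834). Over GFP-negative it was lost on leaving out any library of the 2 groups (adjusted p up to 0.149). Its relative Mptx1 went the other way, with 2200.0 to 44408 CPM in colon and 11 to 22.5 CPM in small intestine. The log2 fold change of Mptx1 was -9.98 ± 1.56 over GFP-high (adjusted p = 0.00832) and -10.4 ± 1.58 over GFP-negative (adjusted p = 0.00691), and -7.29 and -10.76 without the second colon pair (adjusted p = 0.00156 and 0.000836).

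Habp2 (chr19:56287137-56320822), which encodes a secreted serine protease that binds hyaluronan, was the lowest of the 8 in small intestine per length, at 11 ± 3.29 RPKM, and had the largest fold changes of the 8. It held 22.9, 42.2 and 39.8 CPM there. Colon GFP-high had 0.0191, 0.0218 and 0.00931 CPM, from 5 counts in all, and GFP-negative had 0.0648, 0.0299 and 0.268 CPM, from 33. The log2 fold change was 10.94 ± 0.98 over GFP-high (adjusted p = 0.000734) and 8.15 ± 0.85 over GFP-negative (adjusted p = 0.00154). It was 11.14 and 7.68 without the second colon pair, and it stayed called on leaving out any single library.

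Clps, Pla2g2a and Ang4 were not restricted to small intestine in these libraries. Clps (chr17:28558149-28560766), which encodes colipase, a cofactor of pancreatic lipase, held 397, 228 and 175 CPM in small intestine, 54.4, 198 and 27 CPM in GFP-high and 59.7, 69.6 and 209 CPM in GFP-negative. The groups overlapped, and the log2 fold changes of 1.52 ± 0.77 (adjusted p = 0.308) and 1.23 ± 0.76 (adjusted p = 0.386) did not pass. They were 2.71 and 0.98 without the second colon pair. Its highest library, small intestine replicate 1, was also the highest for 9 of the 10 genes of the pancreatic acinar list, which summed to 2144 CPM there, to 13.5 and 11.9 CPM in the other small intestinal libraries and to 190 to 434 CPM in colon. The exception was Cela1, an elastase named after its values were seen, which made up nearly all of the colon sums, with 189 to 433 CPM there and 169 CPM in replicate 1. The digestive enzymes Cela2a and Prss2, named likewise, held 459 and 447 CPM in replicate 1 and at most 0.713 CPM elsewhere, while Amy2a5, an amylase, was at 0 in 8 libraries and at 0.0274 CPM in replicate 1. The part of such cells in the Clps level was not tested.

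Pla2g2a (chr4:138831857-138835186), which encodes a bactericidal phospholipase, held 50.1, 128 and 67.3 CPM in small intestine, 51.7, 77.8 and 14.3 CPM in GFP-high and 108, 56.1 and 91.9 CPM in GFP-negative. The 3 groups overlapped throughout. The log2 fold change was 0.77 ± 0.59 over GFP-high (adjusted p = 0.522) and -0.06 ± 0.58 over GFP-negative (adjusted p = 0.964). It was 1.30 and -0.29 without the second colon pair.

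Ang4 (chr14:51763878-51773590), which encodes a microbicidal ribonuclease, had the highest mean level per length of the 8 in colon, at 2328 RPKM in GFP-high and 1907 RPKM in GFP-negative. It held 482, 640.3 and 391 CPM in small intestine. Colon GFP-high had 8.88, 4801 and 143 CPM and GFP-negative had 329, 609 and 3119 CPM. The log2 fold changes of -1.70 ± 1.64 (adjusted p = 0.629) and -1.44 ± 1.63 (adjusted p = 0.655) did not pass. The direction over GFP-high rested on replicate 2, since without it the log2 fold change was 2.74 (adjusted p = 0.383). Over GFP-negative it was 0.11 without GFP-negative replicate 3 (adjusted p = 0.985).

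Lyz1, Itln1, Mptx2, Clps and Ang4 shared their 2 highest colon libraries, GFP-high replicate 2 and GFP-negative replicate 3, while the summed alpha-defensins were highest in colon in GFP-negative replicate 1 and GFP-high replicate 1. The former 2 libraries also had the lowest sums of the 8 stem cell markers, at 192 and 150.4 CPM against 247 to 1091 CPM in the other colon libraries. The 6 enteroendocrine markers summed to 10684 and 3149 CPM there and to 69.9 to 2978 CPM in the others. The part of these cells in the values was not tested.

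**Figure D4:**
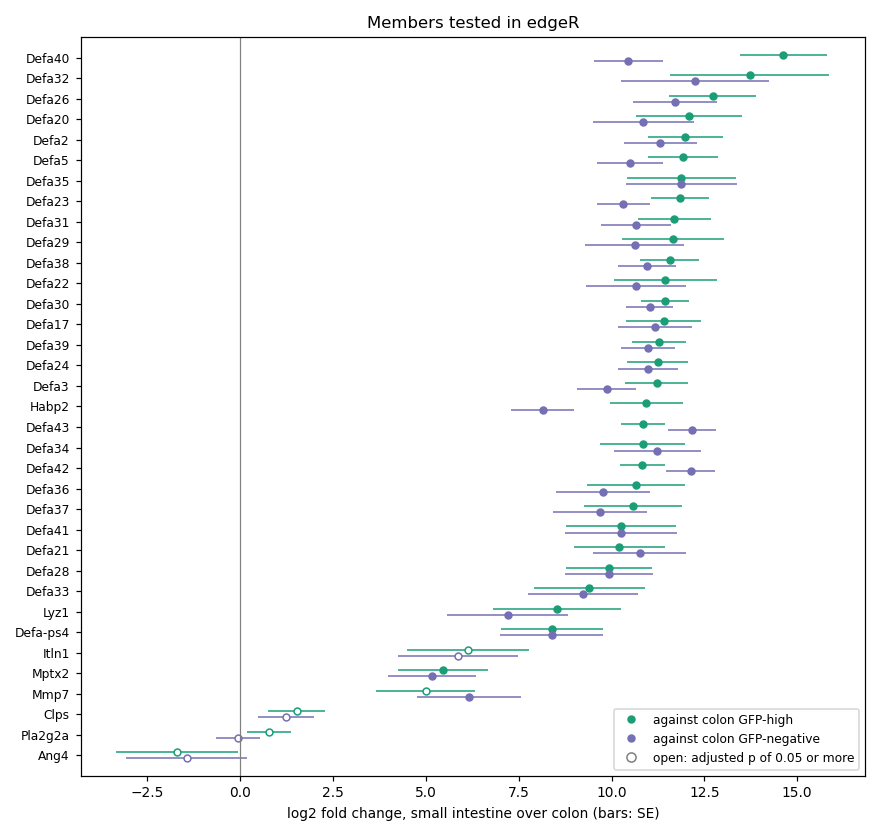
Log2 fold change of small intestine over each colon group for the 35 genes tested, from a single edgeR fit of the 9 libraries, with bars of 1 SE. Open circles mark an adjusted p of 0.05 or more. The alpha-defensins lie between 9.23 and 14.63, while Clps, Pla2g2a and Ang4 lie between -1.70 and 1.52. Values of genes with no count in a colon group, such as Defa40, Defa35, Defa41, Defa28 and Defa-ps4, depend on the prior count of the fit and are not bounds.

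Between the colon fractions no gene of the set passed the test. In an edgeR fit of the 6 colon libraries alone, 15 of the 53 genes had enough counts to be tested, and 0 of them were called, where 0% of 19114 genes were. At an unadjusted p under 0.05 there were 0 of the 15 and 107 of all genes. In the fit of all 9 libraries 0 of 35 were called, where 0% of the 20610 genes tested were, but most of these genes passed the filter only through small intestine, and Defa35, Defa41, Defa28 and Defa-ps4 had no colon count with which to differ. At an unadjusted p under 0.05 that fit held 2 of the 35 and 226 of all genes. These 2 were Habp2, with 5 counts in GFP-high and 33 in GFP-negative, and Defa40, named after its values were seen, with 0 and 6 counts, and both were too low for the fit of colon alone. DESeq2 and limma-voom called 0 of the 35, where they called 0.00492% and 0% of all genes. Without the second pair 0 of 36 were called, where 0% of 21770 genes were. The summed family gave a log2 fold change of -0.37 ± 0.55 for GFP-high over GFP-negative (adjusted p = 1). For 14 of the 35 genes the sign of this difference turned under at least 1 alternative analysis. The result says only that no difference was detectable with 3 libraries a group, 1 pair of which goes against its labels.

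Some genes of the list of Paneth cell specification and niche signals passed the test, and more of them were lower than higher in small intestine. Of 16 such genes, all tested, 1 was higher and 3 were lower in small intestine than in colon GFP-high, where 1.75% of all genes tested were called higher and 3.94% lower. Over GFP-negative 0 were higher and 3 lower, where 1.71% of genes were called higher and 3.95% lower. Without the second colon pair 1 was higher and 2 lower in each, where 0.547% and 1.07% of genes were higher and 1.79% and 3.04% lower. The median log2 fold change was -0.20 and -0.27, against -0.0201 and 0.00157 over all genes. Atoh1, the transcription factor of secretory progenitors, held 38.2, 40.9 and 27.7 CPM in small intestine and 119.6 to 356 CPM in colon, a log2 fold change of -2.75 ± 0.40 over GFP-high (adjusted p = 0.00623), and -2.35 without the second pair (adjusted p = 0.0307). Sox9, which Paneth cells need to form, held 65.7 to 224 CPM in small intestine and 90.9 to 206 CPM in colon (log2 fold change -0.14, adjusted p = 0.912). Xbp1, a regulator of the secretory apparatus, held 282 to 503 CPM in small intestine and 415 to 780.5 CPM in colon (-0.79, adjusted p = 0.236). The other lower genes were Spdef and Gfi1 and the higher one was Dll1, all named after their values were seen. Without the second pair Gfi1 was not called (adjusted p = 0.180 over GFP-high and 0.0517 over GFP-negative). Dll1, Wnt3 and Fzd5 were the 3 genes of the list whose small intestinal libraries all lay above all colon libraries. The same held for 2.57% of all 78239 genes, including those too low to test. Wnt3, a signal that Paneth cells give to stem cells, held 4.63, 11.4 and 9.73 CPM in small intestine and 0 to 0.745 CPM in colon. Its log2 fold change of 4.11 ± 1.24 over GFP-high (adjusted p = 0.0980) and 5.27 ± 1.31 over GFP-negative (adjusted p = 0.0527) did not pass, and without the second pair the latter was 6.80 and just passed (adjusted p = 0.04999). Fzd5, a Wnt receptor, held 12.3 to 20.9 CPM in small intestine and 4.63 to 11.5 CPM in colon (1.01 ± 0.42 over GFP-high, adjusted p = 0.213). Wnt3 and Fzd5 too were named after their values were seen.

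Of 17 genes of granule secretion and the endoplasmic reticulum, 0 were higher and 4 lower than in GFP-high, and 0 higher and 6 lower than in GFP-negative, beside the 1.75% and 1.71% of all genes called higher and the 3.94% and 3.95% called lower. Without the second pair 3 and 4 were lower, where 1.79% and 3.04% of all genes were. Their median log2 fold change was -0.26 and -0.35. Agr2, a disulfide isomerase of mucus-secreting cells that is also on the goblet list, held 1040.1, 461 and 178 CPM in small intestine and 3623 to 12911 CPM in colon (-3.92 ± 0.77 over GFP-high, adjusted p = 0.0222), but without the second pair it missed the threshold over GFP-high (adjusted p = 0.0877) and passed over GFP-negative (adjusted p = 0.0428). Hspa5, the main chaperone of the endoplasmic reticulum, held 581 to 1694 CPM in small intestine and 299.9 to 1529 CPM in colon (0.27, adjusted p = 0.865). Sec11c, a signal peptidase subunit, passed over GFP-negative (-1.48 ± 0.35, adjusted p = 0.0438) and missed the threshold over GFP-high (-1.39 ± 0.35, adjusted p = 0.0548), and without the second pair it passed in neither (adjusted p = 0.238 and 0.0682). The difference between these 2 was not tested. The goblet list summed to 7997 to 50894 CPM in colon and to 19897, 2199 and 2997 CPM in small intestine, and its part in these lists was not tested.

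Other secreted antimicrobials were divided. Of 20 genes 17 were tested, with 1 higher and 2 lower than in GFP-high and 2 higher and 4 lower than in GFP-negative, and medians of -0.87 and -0.82, where 1.75% and 1.71% of all genes were higher and 3.94% and 3.95% lower. Without the second pair 2 were higher and 2 lower than in GFP-high, with a median of 0.72, and 1 higher and 5 lower than in GFP-negative, with a median of -1.15, so the first median turned in sign. Of all genes tested without that pair, 0.547% and 1.07% were higher and 1.79% and 3.04% lower. Mptx1, given above, was the most abundant. Reg4, a secreted lectin, held 175 to 355 CPM in small intestine and 806 to 17707 CPM in colon, and it passed over GFP-negative (-5.16 ± 1.20, adjusted p = 0.0410) but not over GFP-high (-4.17 ± 1.14, adjusted p = 0.0739). The difference between the 2 was not tested. Without the second pair Reg4 was at -4.28 and -1.85 (adjusted p = 0.00422 and 0.0727). Lypd8, a secreted protein that keeps bacteria from the colon surface, held 1169.6 to 7740.4 CPM in small intestine and 614 to 10925 CPM in colon (-0.19, adjusted p = 0.948). The beta-defensins, the other defensin family of epithelia, were nearly silent. Among 43 listed genes 35 had no count in any library and 4 were tested, with 0 higher and 2 lower in each comparison, where 3.94% and 3.95% of all genes were lower. Without the second pair 1 was lower in each, where 1.79% and 3.04% of all genes were. Defb45 held 1.92 to 12.3 CPM in colon and at most 0.0586 CPM in small intestine (-7.77 ± 1.37 over GFP-high, adjusted p = 0.0137), and stayed called without that pair (adjusted p = 0.0244 and 0.0147). Defb37 held 2.68 to 6.10 CPM in colon and 0.274 to 0.918 CPM in small intestine (-2.89 ± 0.56, adjusted p = 0.0200), and was not called without that pair (adjusted p = 0.0566 and 0.0858). Defb1 did not exceed 0.439 CPM in any library. The summed alpha-defensins in small intestine were thus accompanied by no beta-defensin above 1 CPM there.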

How the data were processed

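Polyadenylated RNA of 9 libraries in 3 groups was counted. The submitters' processing notes name genome build mm10 and the tools STAR, featureCounts and Subread for reads and edgeR for values, without versions. Per the file headers, the deposited table holds a raw read count per gene and library. It also holds the authors' log2 CPM and log2 RPKM values and, for each library, a total and a scaling factor, which is a ratio. The deposited log2 values were recomputed from the counts (prior count 2) within 5.7e-14. How reads that fit several genes were shared, the strand setting and the annotation release were not stated.

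Counts were tested in R 4.3.3 with edgeR 4.0.16: filterByExpr by group, TMM, a fit of all 9 libraries (glmQLFit, glmQLFTest, two-sided) and Benjamini-Hochberg adjustment over 20610 genes, called at an adjusted p under 0.05. SE came from the fold change and its F statistic. The fit was tested on simulated counts. Levels are CPM on the deposited totals and factors. DESeq2 1.42.0, limma-voom (limma 3.58.1), other scalings, no filter, replicate blocks, omitted libraries and a summed family were alternatives. A level of 3 counts is 0.0232 to 0.0411 CPM, and the common biological coefficient of variation was 0.726.

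Coordinates and coding sequences are from GENCODE M21 (GRCm38), where all 53 genes matched by ID, and promoters from RefSeq. Coding identity replaced the protein identity planned at first. The gene set and lists were chosen with earlier results of these data known. Named with values were the 8 other genes, the 8 alpha-defensins with the highest mean, any alpha-defensin at 1 CPM or more in a colon library, the 3 most abundant tested genes of each list, and Lgr5, Lyz2 and Defb1. Cell-type lists are given only beside the results they bear on.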

Additional observations from a re-analysis of the deposited data

How the results depend on the processing

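Leaving out each of the 9 libraries in turn gave 24 to 31 called genes of the set in each comparison with small intestine, and DESeq2, limma-voom, other scalings, no filter and fits of 2 groups gave 30 to 32. Of all genes tested, 2.38% to 6.27% were called in the former fits and 3.3% to 13.9% in the latter. The same 22 alpha-defensins and other genes were called in every alternative except the blocks and the summed family, 21 alpha-defensins and Habp2. Summing the alpha-defensins to 1 row leaves 9 rows, of which 4 were called over GFP-high and 5 over GFP-negative. In that fit 5.46% and 5.48% of all genes tested were called. The number of near-identical groups was 5 at 90% and 15 at 98% identity. With the replicate number of the titles as a block, 24 genes of the set were called in each comparison, where 2.46% and 2.58% of all genes were. With the tag of the library names as a block 9 and 0 were called, and 18 and 0 of all genes. The tag block leaves few degrees of freedom. Deviations of same-numbered libraries had correlations of -0.604 to 0.303 over 9 pairs, and those with the same tag -0.604 to 0.275 over 5 pairs. The lowest value was that of the second colon pair, whose Lgr5 goes against its labels. These correlations cannot exclude that number or tag pairs the samples, and the main fit holds no block. Apart from the tag block, called genes over all tested ranged from 508 (title block) to 2714 (DESeq2) against GFP-high and from 531 (without GFP-negative replicate 1) to 2871 (DESeq2) against GFP-negative.

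The signs of Ang4 and Pla2g2a turned. Ang4 over GFP-high had a log2 fold change of 1.44 in limma-voom, 0.55 with the title block, 1.86 with the tag block and 2.74 without the second colon pair, and -2.30 to 2.74 on leaving out single libraries. Over GFP-negative it was 1.63 with the tag block and -1.89 to 0.11 on leaving out single libraries. Pla2g2a over GFP-negative was 0.069 with total-count scaling, 1.05 with the tag block and -0.56 to 0.19 on leaving out single libraries. DESeq2 gave no adjusted p for Lyz1 and Ang4. The cause of these changes was not tested. Leaving out the second colon pair was added for the other lists after the data were seen. There Lypd8 over GFP-high turned to 0.72 and Hspa5 over GFP-negative to 0.23. Counts were too low to test 18 of the 53 genes, and the 322 to 985 family counts in a colon library limit how well single alpha-defensins can be compared there.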

Other observations

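Genes named here were chosen after their values were seen. Creb3l1, a membrane-bound transcription factor of secretory cells, held 21, 17.9 and 19.7 CPM in small intestine and 168 to 259 CPM in colon, a log2 fold change of -3.51 ± 0.24 over GFP-high (adjusted p = 0.000184). Ern2, a stress sensor of the endoplasmic reticulum in mucus-secreting cells, held 22.2, 23.6 and 26.1 CPM in small intestine and 116 to 244 CPM in colon (-2.96 ± 0.36, adjusted p = 0.00295). Lrrk2, a kinase tied to lysozyme sorting in Paneth cells, had no count in any small intestinal library and 1.43 to 3.59 CPM in colon, while Lyz1 was at its highest in small intestine. Retnlb, a goblet cell antimicrobial, held 0.932 to 1.69 CPM in small intestine and 145 to 3032 CPM in colon (-9.72 ± 1.70, adjusted p = 0.0132), and -7.21 without the second colon pair (adjusted p = 0.0192).

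Reg3a, a bactericidal lectin, held 457, 7.28 and 33.8 CPM in small intestine and 0.272 to 2.34 CPM in colon (7.69 ± 1.78 over GFP-high, adjusted p = 0.0412), and it was not called without the second colon pair (adjusted p = 0.164). Its highest library was replicate 1, where the 8 enterocyte markers also summed to 38684 CPM, against 652 and 8927 CPM in replicates 2 and 3. The part of enterocytes in its level was not tested. The alpha-defensins did not share that spread, at 17603, 16524 and 10382 CPM.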
